A study of Macaca mulatta with 38 samples.

Results

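The nRBC libraries of rhesus macaque ZL34 were compared with its Mono libraries on the 3 days that both cell types share, days 266, 494 and 553. These are 6 of the 38 barcode libraries of the series, 1 library per cell type and day, each taken by its labelled cell type and day and read as percent of its own column sum. nRBC is the usual abbreviation for nucleated red blood cells, and Mono was read as monocytes. Both came from peripheral blood of 1 male animal that was 4 years old when its CD34+ cells were collected. The cells had been mobilised with G-CSF and AMD1300, exposed to a barcoded lentivirus library at a multiplicity of infection (MOI) of 25, and reinfused once TBI was done. Weekly cidofovir of 5 mg/kg was given against CMV. All libraries share this history, there is no untransduced control among them, and only barcode DNA was counted, so the labelled cell types could not be checked against marker genes.

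Red cells and monocytes are both made from blood stem cells by way of myeloid progenitors. An erythroid progenitor normally loses its nucleus as it matures, and nucleated red cells are scarce in healthy blood. A lentiviral barcode is inserted into the genome of a stem or progenitor cell and passes to all of its descendants, whatever lineage they enter. At a high multiplicity of infection a cell can take up several vector copies and so carry several barcodes. If the same cells feed both lineages in the same proportions, the read shares of their barcodes match between lineages, and a barcode with a higher share in one lineage is said to be biased toward it.

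Barcodes were numbered by their mean share over the 38 libraries. The expanded clone was defined from nRBC libraries that are not compared here, as the barcodes holding at least 5% of reads at both day 309 and day 393. This gave 6 barcodes, bc1 to bc6, and all other barcodes are called minor. Grouping by correlation over the 38 libraries returned the same 6. They are called a clone because they moved together, and whether 1 founder cell carried all 6 was not tested. Their sequences are shown because nearly every read of the nRBC libraries came from them. Capitals mark the variable part, and the lower-case bases before it are the constant start as deposited:
bc1: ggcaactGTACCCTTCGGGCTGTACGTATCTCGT
bc2: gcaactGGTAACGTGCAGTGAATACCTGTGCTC
bc3: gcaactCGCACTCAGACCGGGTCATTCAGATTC
bc4: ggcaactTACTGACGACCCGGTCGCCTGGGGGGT
bc5: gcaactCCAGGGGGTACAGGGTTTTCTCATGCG
bc6: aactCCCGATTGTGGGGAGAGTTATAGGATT
The members differed from each other by 13 to 19 edits over the 15 pairs, so none is a sequencing copy of another by 1 or 2 changed bases. No minor barcode of the 6 libraries lay within 2 edits of a member.

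Sequences of minor barcodes named below follow in the same form, as examples and not as markers of a lineage. bc11 was the leading minor barcode of all 3 nRBC libraries. bc7 and bc10 led the minor reads of Mono at day 266. bc267, bc209 and bc49 were listed in nRBC at day 266 although they were scarce in Mono, and bc29 and bc27 were common in Mono but not listed in nRBC:
bc11: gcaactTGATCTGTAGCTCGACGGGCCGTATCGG
bc7: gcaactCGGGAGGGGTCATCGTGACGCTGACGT
bc10: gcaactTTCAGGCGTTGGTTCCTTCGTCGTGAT
bc267: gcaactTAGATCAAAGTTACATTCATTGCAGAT
bc209: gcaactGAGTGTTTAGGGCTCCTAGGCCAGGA
bc49: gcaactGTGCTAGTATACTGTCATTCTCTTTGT
bc29: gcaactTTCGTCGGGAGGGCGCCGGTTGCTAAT
bc27: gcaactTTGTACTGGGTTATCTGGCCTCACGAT
bc11 has 28 variable bases and bc209 has 26, while the others shown have the usual 27, which 82.3% of the 43260 sequences with a recognisable adapter start share.

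Reads of kept barcodes ran from 3703950 to 3832849 in the 3 nRBC libraries and from 2123287 to 3786747 in the 3 Mono libraries. The table holds no count from 1 to 100, so a barcode at 0 was taken as having at most 100 reads and is called unlisted. That limit is 0.00261% to 0.00270% of reads in nRBC and 0.00264% to 0.00471% in Mono, highest in Mono of day 494. Intervals on shares are exact 95% Clopper-Pearson intervals. They allow for counting error only: amplified reads that carry no molecular identifier do not each stand for a molecule. Each cell type and day has 1 library, so there is no replicate spread within a day.

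At day 266 the clone filled the nRBC library and less of the Mono library of the same day. It held 99.33% of nRBC reads (interval 99.32% to 99.34%) and 41.1% of Mono reads (interval 41.07% to 41.17%), a difference of 58.2 percentage points and a ratio of 2.42. The same day's other blood libraries had lower clone shares than Mono, with 15.6% in Gr, 10.6% in B and 5.40% in T. By day 494 the clone held 99.95% of nRBC and 99.92% of Mono, and by day 553 it held 99.852% and 99.849%. The differences on those days were 0.0289 and 0.00274 points. At day 553 the intervals overlap, 99.848% to 99.856% in nRBC and 99.845% to 99.853% in Mono. Over the 3 days the clone share was 99.7% ± 0.331 (SD, n = 3) in nRBC and 80.3% ± 33.9 (SD, n = 3) in Mono. The nRBC share was higher on 3 of 3 days, by 19.4 ± 33.6 points (SD, n = 3; two-sided exact sign-flip permutation p = 0.25, the smallest that 3 days allow). Day 266 carries this mean, which is 0.0158 points without it. With only barcodes of at least 0.05% in the denominator, the day 553 difference turned to -0.00507 points.

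**Figure D1:**
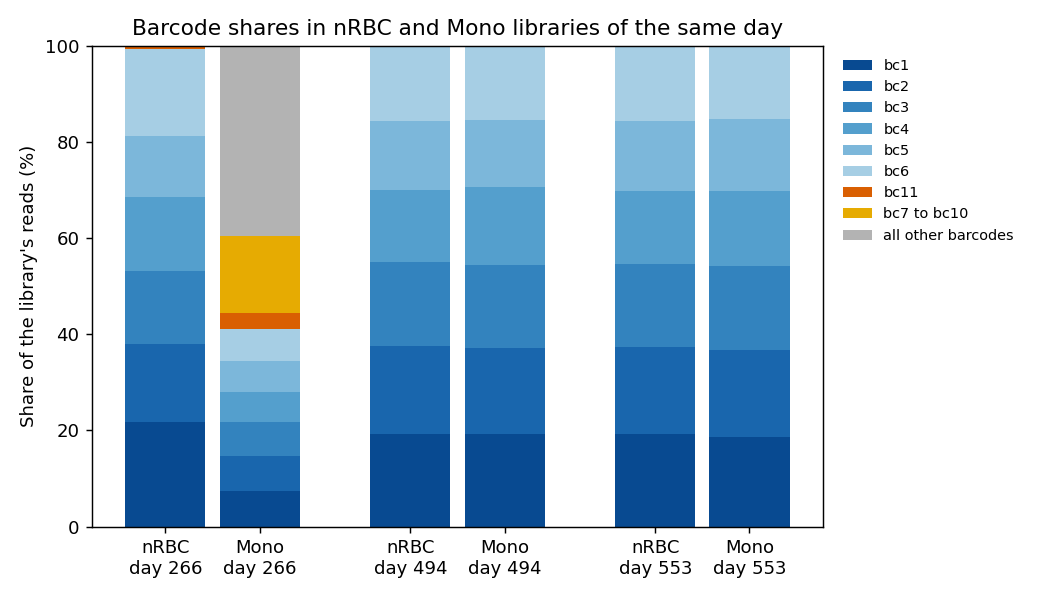
Stacked bars give the share of each library's reads (%, linear axis from 0) for the 6 clone members, bc11, bc7 to bc10 and all other barcodes, in the nRBC and Mono libraries of days 266, 494 and 553, 1 library per bar. Only the Mono bar of day 266 is not filled by the clone: 41.1% of it is clone, 16.0% is bc7 to bc10 and 3.38% is bc11.

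The odds of clone to minor reads show the same gap on a scale that does not saturate as shares do. Minor reads here are those of listed barcodes only, so the odds of each library are upper bounds. At day 266 Mono listed 3651 minor barcodes that nRBC did not, and any reads of these in nRBC are not counted. The size of the 213-fold gap below therefore depends on the listing limit. At day 266 there were 149 clone reads per minor read in nRBC and 0.698 in Mono, a 213-fold gap. At day 494 these odds were 1918 and 1233, a ratio of 1.56. At day 553 they were 674 and 662, a ratio of 1.02. The gap thus narrowed on every later shared day, mostly through the Mono library, whose minor share went from 58.9% to 0.0810% and 0.151%, while that of nRBC went from 0.667% to 0.0521% and 0.148%. In both cell types the minor share was lowest at day 494 and about as high in one as in the other at day 553.

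**Figure D2:**
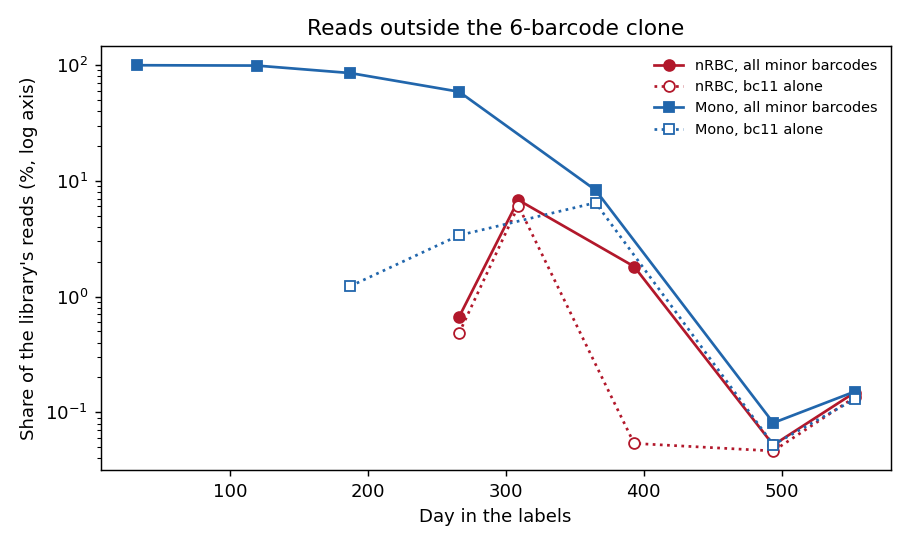
Lines give the share of reads outside the clone (%, log axis) against the day in the labels, for all minor barcodes (filled points) and for bc11 alone (open points), in the 5 nRBC and 7 Mono libraries. Libraries that list bc11 at 0 have no open point. The Mono minor share was 58.9% at day 266 and 0.0810% at day 494, where nRBC stood at 0.0521%.

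Each of the 6 members had a higher share of nRBC than of Mono at day 266, and they were not enriched equally. bc1 held 21.7% of nRBC reads and 7.49% of Mono reads, the highest ratio at 2.90. bc6 held 18.0% and 6.69%, a ratio of 2.69, and bc4 15.4% and 6.23%, a ratio of 2.47. bc2 held 16.3% and 7.17%, a ratio of 2.27. bc3 held 15.3% and 7.14%, a ratio of 2.14. bc5 held 12.7% and 6.41%, the lowest ratio at 1.98. At day 494 the 6 ratios lay between 0.932 and 1.03, and at day 553 between 0.961 and 1.03, so no member was set apart between the lineages as at day 266.

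Ratios among the members do not depend on how many minor reads a library has, so the composition of the clone was also compared as percent of clone reads. At day 266 bc1 made up 21.9% of the clone in nRBC and 18.2% in Mono, and bc6 18.1% and 16.3%. bc5 made up 12.8% in nRBC and 15.6% in Mono, and bc3 15.4% and 17.4%. The Mono clone was thus the more even one, with members between 15.1% and 18.2%, against 12.8% and 21.9% in nRBC. The share of clone reads that would have to move between members to make both libraries equal was 5.83% at day 266, 1.21% at day 494 and 0.846% at day 553. Later libraries give a scale for this: over the 4 libraries of days 494 and 553, bc1 was 19.1% ± 0.305 (SD, n = 4) of the clone and bc5 14.5% ± 0.352 (SD, n = 4). The nRBC library of day 266 lay outside the range of those 4 for 5 members, all but bc4, and the Mono library of day 266 for 4 members, bc1, bc2, bc5 and bc6. Composition also moved between days of 1 lineage. From nRBC of day 266 the later nRBC libraries differed by 5.44% (day 494) to 14.8% (day 309) of clone reads. From Mono of day 266 the later Mono libraries differed by 1.87% (day 553) to 7.42% (day 365). The 5.83% between nRBC and Mono at day 266 lies within both ranges.

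Over the 3 days, no member's composition passed a test of nRBC against Mono, and none could have. bc1 was higher in nRBC on 3 of 3 days, by a mean of 1.46 ± 1.90 points (SD, n = 3; exact sign-flip permutation p = 0.25, 0.5 after Benjamini-Hochberg adjustment over the 6 members). bc6 was also higher on 3 of 3 days, by 0.841 ± 0.888 points (SD, n = 3; exact permutation p = 0.25, adjusted 0.5). bc3 was lower in nRBC on all 3 days, with a mean difference of -0.735 ± 1.06 points (SD, n = 3; exact permutation p = 0.25, adjusted 0.5). bc2, bc4 and bc5 had mixed signs over the days, with adjusted exact permutation p from 0.75 to 1. The mean differences of bc2 and bc5 turned from -0.211 and -0.885 points to 0.216 and 0.0786 without day 266.

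**Figure D3:**
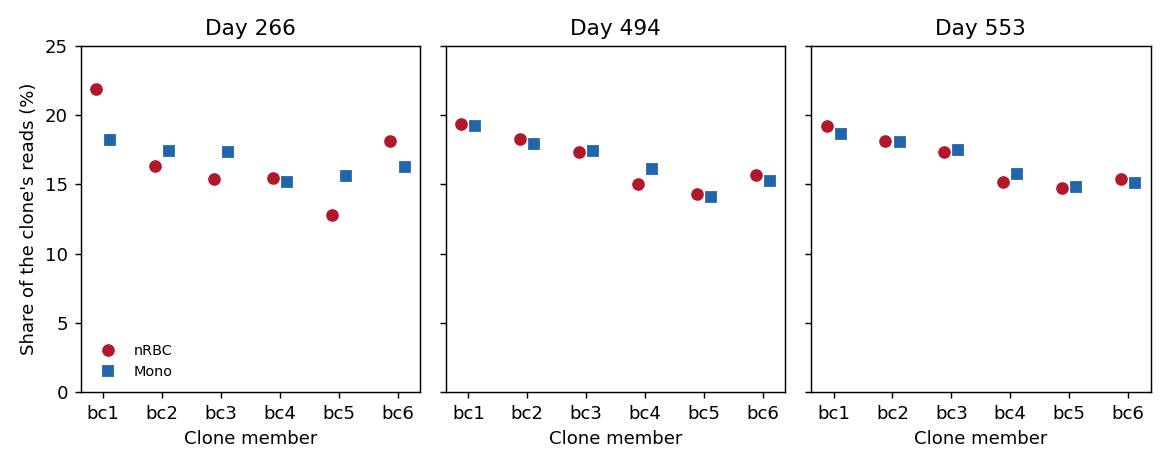
Points give each clone member's share of the clone's reads (%, axis from 0) in the nRBC (circles) and Mono (squares) library of each day, 1 library per point. The circles and squares are farthest apart at day 266, where bc1 is at 21.9% in nRBC and 18.2% in Mono, and nearly coincide at days 494 and 553.

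A fit of single barcodes over the 3 days called none. edgeR's quasi-likelihood test with day as a block was run on the 7 barcodes that reached 0.05% of reads in at least 2 of the 6 libraries, which were the 6 members and bc11. It called 0 of 7 (0%) at an adjusted p under 0.05, none (0) had an unadjusted p under 0.05, and the count with DESeq2 was also 0. The fitted log2 difference of nRBC over Mono was 0.52 ± 0.65 (SE) for bc1, the highest of the members, and 0.33 ± 0.50 (SE) for bc5, the lowest, and that of bc11 was -0.92 ± 1.31 (SE), each with an edgeR adjusted p of 0.542. The day 266 gap and the near equality on the other days both enter these estimates, and serial libraries of 1 animal are not independent samples.

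At day 266 the minor barcodes of nRBC were few and those of Mono many. nRBC listed 13 minor barcodes and Mono 3664. Weighted by reads, the effective number of minor barcodes (Shannon entropy, exponentiated) was 3.20 in nRBC and 425 in Mono. Counting only barcodes of at least 0.01% of a library left 6 in nRBC and 936 in Mono. Since the nRBC library holds only 24701 minor reads against 1839898 in Mono, a barcode at the same share of minor reads is far harder to list in nRBC.

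All 13 minor barcodes of nRBC at day 266 were also listed in Mono, so the nRBC list was contained in the Mono list. They were 0.355% of the 3664 barcodes in Mono and 35.6% of its minor reads. By share of the library, 12 of the 13 were lower in nRBC and 1 was higher. A fold rule set this against all barcodes of either library. With unlisted barcodes set at 100 reads, 828 of 3670 (22.6%) were at least 4-fold higher in Mono and 0 of 3670 (0%) at least 4-fold higher in nRBC. The clone as a whole, at 41.1% of Mono, could not have been 4-fold higher in nRBC. Of the 828, 817 were unlisted in nRBC and 11 were listed in it. With 1 library on each side there is no test. The 11 are 11 of the 13 shared barcodes, all but bc267 and bc49. An unlisted barcode could reach 4-fold only from 0.0108% of Mono upward, which 830 minor barcodes did, so most calls follow from the Mono share alone. The direction turned on the scale of minor reads, where 8 of 3664 (0.218%) were at least 4-fold higher in nRBC and 3 of 3664 (0.0819%), bc22, bc27 and bc29, at least 4-fold higher in Mono.

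bc11 was the main minor barcode of nRBC. At day 266 it held 0.483% of nRBC reads and 3.38% of Mono reads, a ratio of 0.143 (counting interval 0.141 to 0.145). It nevertheless made up 72.4% of the listed minor reads of nRBC and 5.74% of those of Mono. At day 494 it held 0.0463% of nRBC and 0.0525% of Mono, a ratio of 0.883 (counting interval 0.819 to 0.953). At day 553 it held 0.135% and 0.130%, a ratio of 1.04 (counting interval 0.999 to 1.08). It had become the leading minor barcode of both lineages by then, with 88.9% and 90.9% of nRBC minor reads and 64.8% and 85.9% of Mono minor reads at days 494 and 553.

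bc7, bc8, bc9 and bc10 moved together over the 38 libraries, with every pairwise r at least 0.95, and were the 4 leading minor barcodes of Mono at day 266. Together they held 16.0% of Mono reads and 0.117% of nRBC reads. bc7 had 127426 reads in Mono and 1296 in nRBC, 117-fold less by share, bc8 was 114-fold and bc9 126-fold less. bc10, at 126431 and 600 reads, was 250-fold less. On the scale of minor reads alone, where the clone no longer matters, bc7, bc8 and bc9 had 0.758, 0.776 and 0.701 of their Mono share in nRBC and bc10 had 0.353. bc10 thus stood apart from the other members of its group in nRBC, while the 4 had nearly the same share in Mono, 3.89% to 4.08%. This was not particular to nRBC. In Gr of day 266 bc10 was at 0.356%, against 0.829% to 0.888% for bc7, bc8 and bc9. In Mono of day 119 it was at 1.93% against 7.92% to 8.26%. At day 266 B had 0.173% against 0.201% to 0.310%, and T had 5.45% against 5.57% to 5.80%.

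Other barcodes that were common in Mono were scarcer still in nRBC. bc22, bc27 and bc29, which also moved together, held 4.09% of Mono reads, and of these only bc22 was listed in nRBC, with 119 reads against 42070, 419-fold less by share. bc29 held 1.47% of Mono reads and was unlisted in nRBC, at least 544-fold lower. bc27 held 1.28% and was at least 473-fold lower. On the scale of minor reads these are at least 6.17-fold and 5.35-fold. If nRBC had the minor profile of Mono at its own minor read total, 17 barcodes would pass 100 reads, of which 6 were listed and 11 were not. Of those 11, all but bc27, bc29 and bc54 would pass it by less than 1.5-fold. The nRBC total leaves out unlisted reads, while the scaled profile includes barcodes that would fall below the limit. The 17 and these margins therefore depend on the limit.

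On the scale of minor reads 8 of the 13 were at least 4-fold higher in nRBC, which were bc11, bc267, bc209, bc49, bc91, bc92, bc109 and bc139. For 7 of these, all but bc11, listing alone fixes this: the lowest count the table lists is already 0.409% of the minor reads of nRBC, at least 4.74-fold their share in Mono. Their number therefore says nothing of the lineage, and 3625 of the 3664 minor barcodes of Mono would pass in the same way if listed. bc11 was 12.6-fold higher on this scale, where the lowest listed count would give 0.0712-fold. Minor reads are those of listed barcodes, so every fold on this scale depends on the limit. Any reads of the 3651 Mono barcodes unlisted in nRBC would add to the minor total of nRBC and lower its shares.

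bc267 lay well above the limit. It had 1381 reads in nRBC and 1079 in Mono, or 0.0373% and 0.0345% of reads, a ratio of 1.08 (counting interval 0.996 to 1.17). It had the highest ratio to Mono of the 13. As a share of listed minor reads it was 95.3-fold higher, where the lowest listed count would give 6.97-fold. That fold, too, depends on the reads left out as unlisted. bc49, with 172 reads in nRBC and 503 in Mono, and bc209, with 219 and 809, were nearer the limit. The other 4, bc91, bc92, bc109 and bc139, had 110 to 170 reads in nRBC, at most 1.68 times the limit. bc49 stood at 1.70 times the limit. No fold is read from these 4 or from bc49.

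The levels of these barcodes in the other blood cells of day 266 differed. bc267 was highest that day in T, at 0.196% of reads, as were bc49, at 0.408%, and bc209, at 0.0579%. bc91, bc92, bc109 and bc139 were highest in Gr, and bc11 was highest in Mono. All 13 minor barcodes of nRBC were listed in the T and the B library of that day and 12 in the Gr library, all but bc209. Of the 3664 in Mono, 34.6% were listed in T, 58.2% in B and 70.4% in Gr. Weighted by reads, these were 71.4%, 83.1% and 90.8% of the Mono minor reads. The median minor barcode of Mono held 0.00560% of its reads, while bc49, the scarcest of the 13 in Mono, held 0.0161%. The nRBC and Mono lists thus differ in abundance, and the percentages listed were not matched for it. Whether DNA of other blood cells has a part in the nRBC minor reads was not tested.

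**Figure D4:**
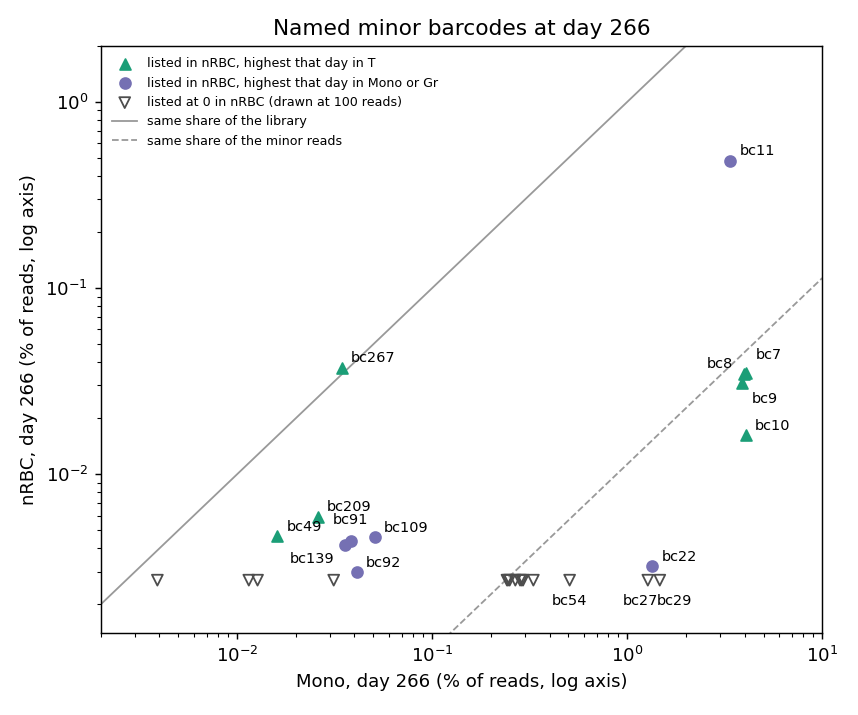
Each point is 1 named minor barcode at day 266, with its share of Mono reads on the x axis and of nRBC reads on the y axis (%, both log axes). The solid line marks equal shares of the library and the dashed line equal shares of minor reads. Triangles pointing up are highest that day in T, circles in Mono or Gr, and open triangles are unlisted in nRBC and drawn at 100 reads. bc267 lies on the solid line, at 0.0373% and 0.0345%, and bc29 is the open triangle farthest right, at 1.47% of Mono.

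The later lists were short in both lineages. At day 494 nRBC listed 3 minor barcodes and Mono 6, with bc11 the only one in common. It was 33.3% of the nRBC list and 16.7% of the Mono list. The other minor barcodes had 104 and 117 reads in nRBC and 103 to 136 in Mono, all close to the limit of 100. In nRBC these were bc19 and bc23, at 0.00271% and 0.00305% of reads, below the 0.00471% that Mono of that day could list. The same barcodes had 40565 and 29045 reads in the T library of day 494, 5.30% and 3.79% of it. In the EOS library of that day they had 595 and 347 reads, and in Gr they were unlisted.

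The Mono side of day 494 held different barcodes. They were bc10, bc641, bc1571, bc1853 and bc3296, each above 0.0048% of Mono reads and unlisted in nRBC, whose limit was 0.00261%. The last 4 were at 0 in the T library of that day, which could list none under 0.0131% of its reads, a higher share than theirs in Mono. Over the 38 libraries each of them was highest in Gr at day 266, from 0.0194% for bc3296 to 0.0887% for bc641. All 6 of the Mono minor barcodes of day 494 had been listed in Mono at day 266.

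At day 553 nRBC listed 5 minor barcodes and Mono 7, of which 4 were shared, bc7, bc9, bc10 and bc11. These were 80.0% of the nRBC list and 57.1% of the Mono list, and 97.9% and 92.7% of the minor reads. bc7 had 120 reads in nRBC and 136 in Mono, bc9 134 in each and bc10 139 and 121. Their nRBC to Mono ratios were 0.882, 1.00 and 1.15, each with a counting interval that includes 1. The group that had been at least 114-fold lower in nRBC at day 266 was thus at 0.0104% of nRBC and 0.0103% of Mono, near the limit in both.

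The barcodes held by a single lineage at day 553 were mostly barcodes that were common in T. nRBC alone listed bc13, with 117 reads, and Mono alone listed bc15, bc18 and bc2361, with 111, 197 and 107. bc13, bc15 and bc18 had 42364, 49090 and 59493 reads in the T library of that day. They were also listed in Gr of that day, with 284, 216 and 201 reads. In CD34p of that day bc15 and bc18 had 106 and 131. bc13, bc15 and bc18 belong to a group of 7 with bc19 and bc23, the barcodes found in nRBC and not in Mono at day 494. bc2361 was at 0 in T and had 407 reads in B. The part of T or B cell DNA in these reads was not tested. With barcodes of at least 0.01% only, bc11 was the sole minor barcode of either lineage on both later days.

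Of the 3664 minor barcodes of Mono at day 266, most were not listed in Mono again. Those listed at day 365 were 146 (3.98%), and they had held 53.3% of the Mono minor reads of day 266. The 6 listed at day 494 had held 12.7% of them and the 4 listed at day 553 had held 26.2%. Mono of day 494 could list no barcode at or below 0.00471% of its reads, which leaves the presence of the others below the limit unknown. Before day 266, 1727 (47.1%) had been listed at day 187. nRBC listed 22 of them at day 309 and 116 at day 393, days with no Mono library. The nRBC list did not shrink steadily either: it held 24 minor barcodes at day 309 and 195 at day 393, when the minor share was 1.82%, before the 3 of day 494.

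Similarity of the whole profiles followed the clone. Pearson's r between square-rooted read shares, taken over barcodes, was 0.673 at day 266, 0.9997 at day 494 and 0.9999 at day 553. Over minor barcodes alone it was 0.455, 0.759 and 0.953. These are descriptions with no test, since barcodes of 1 library share its depth and its sum, and the later values for minor barcodes rest on few barcodes, bc11 above all.

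bc11 also differed from the clone in its own ratio to it. At day 266 there were 206 clone reads per bc11 read in nRBC and 12.2 in Mono. In other libraries of that day the ratio was 211 in Gr, 12.2 in T and 9.71 in B, so nRBC was near Gr, and Mono was near T and B. It was 15.3 in nRBC at day 309 and 14.2 in Mono at day 365. On the later shared days both lineages had far less bc11 per clone read, with ratios of 2157 in nRBC and 1904 in Mono at day 494 and 742 and 771 at day 553. Gr stood at 11.5 at day 365, 16.0 at day 494 and 660 at day 553.

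**Figure D5:**
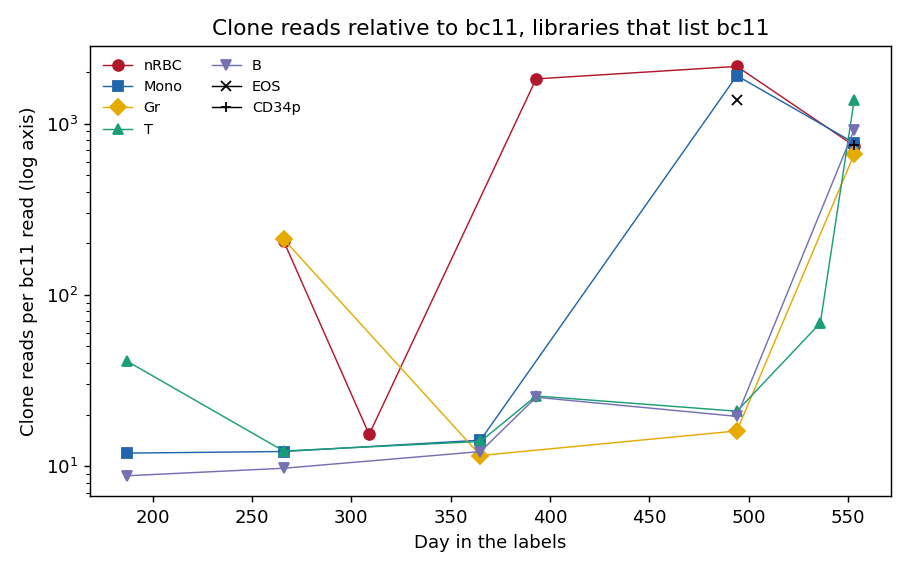
Points give the clone reads per bc11 read (log axis) against the day in the labels for each library that lists bc11, by cell type, with lines joining libraries of 1 cell type. At day 266 nRBC (206) and Gr (211) coincide, and Mono (12.2) lies with T (12.2) and B (9.71). At day 553 nRBC, Mono, Gr and CD34p lie between 660 and 771.

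In clone composition, too, nRBC of day 266 was nearer to Gr than to Mono, while T lay in between. bc1 over bc5 was 1.71 in nRBC, 1.61 in Gr, 1.41 in T, 1.17 in Mono and 0.970 in B. bc6 over bc5 was 1.42 in nRBC, 1.34 in Gr, 1.20 in T, 1.04 in Mono and 0.970 in B. The share of clone reads that would have to move to equal nRBC was 1.98% for Gr, 4.82% for T, 5.83% for Mono and 8.40% for B. These are single libraries, and no replicate shows how much of such a difference arises in amplification.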

How the data were processed

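Per the labels' protocols, 28 PCR cycles on 200 ng of DNA retrieved the barcodes. Read counts of 44423 sequences (50 bases each) in 38 libraries were deposited by the authors as a single table. The values are whole and sum to unequal totals, from which the unit was read. Not given in the sources used here are the sequencer, the barcode reader and the rules for merging or dropping reads. No count from 1 to 100 occurs, so a 0 was taken as at most 100 reads. This limit is inferred, and bounds on folds rest on it. Column sums are the reads of kept barcodes, not whole depths.

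The clone members, the lists, the tests and the named barcodes were chosen with earlier results of these data known. Named were all clone members, the 5 leading minor barcodes of each of the 6 libraries, every minor barcode of a library listing 15 or fewer, and barcodes called by edgeR. The unlisted barcodes above the scaled Mono profile, and bc91, bc92, bc109 and bc139 as a set, are given for completeness.

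Groups came from complete linkage at r of at least 0.95 on log2(percent + 0.01). Days were the matched unit of the exact sign-flip permutation tests. The edgeR 4.0.16 test (R 4.3.3) used column sums as library sizes and day as a block, and was tested on simulated data. DESeq2 1.42.0, TMM factors, other filters, no day block and leaving out each day were alternatives. Ratio intervals of single libraries cover counting error only. Other steps used Python 3.11.15 with pandas 2.3.3, scipy 1.17.1 and edlib 1.3.9.post1. Libraries are serial samples of 1 animal, so p-values do not measure spread between animals. The labels name no batch, so no batch was tested.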

Additional observations from a re-analysis of the deposited data

Results flagged for a closer look

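Over the 5 nRBC and 7 Mono libraries of all days, 14 measures were checked for a library far from the others, and 7 had one. Chance alone gives about 1 in 20, and the libraries are serial days and not replicates, so a trend over days can also set a library apart. In nRBC, day 309 had the lowest clone share, 93.2% against 98.2% in the next, and the highest bc11 share, 6.09% against 0.483%. In nRBC, day 393 had 195 minor barcodes against 24 in the next, and an effective number of minor barcodes of 144 against 3.20. In Mono, day 32 had 10204 minor barcodes against 3664 in the next, and an effective number of 8856 against 425. At Mono day 32 bc5 also made up 24.0% of clone reads against 16.2% in the next, where the clone held only 4924 reads. None of these libraries is among the 6 compared, but the clone was defined from nRBC of days 309 and 393.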

How the results depend on the processing

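Of 135 values recomputed under the alternatives, 3 reversed, 42 moved, and 90 kept their direction and side of the threshold or, where untested, stayed within the spread or 1.5 times for counts. A tested difference could keep its direction and still shrink, as the mean clone difference did without day 266. The clone definition by correlation group, the 1% definition and the near-copy alternative gave the same clone. Values under these alternatives therefore equal the main ones, and they are counted among the 90 although they could not change. With only barcodes of at least 0.05% in the denominator, the clone difference was 41.3 points at day 266, 0.0525 at day 494 and -0.00507 at day 553. With the clone counted as the mean of its members it was 85.7, 0.172 and 0.0162 points. Leaving out each day in turn gave a mean clone difference of 0.0158 to 29.1 points, a composition difference of -0.526 to 0.216 points for bc2 and of -1.44 to 0.0786 for bc5.

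Short lists depended on the lowest share counted. At a common lowest share of 0.00476%, nRBC had 7, 1 and 1 minor barcodes at days 266, 494 and 553, and Mono 1948 at day 266 and 2 at day 553. At 0.01% nRBC had 6, 1 and 1, and Mono 936, 1 and 1. The effective number at the common share was 240 in Mono at day 266, 1.18 in Mono at day 553 and 1 in nRBC at days 494 and 553. At 0.01% it was 117 in Mono at day 266 and 1 in both lineages on both later days. By the inverse Simpson index it was 1.87 in nRBC and 41.9 in Mono at day 266. Shared barcodes became 100% of the nRBC list on both later days at either share, and at 0.01% 0.641% of the Mono list at day 266 and 100% on both later days.

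The similarity at day 266 was 0.875 on untransformed shares and 0.455 without the clone, and at day 494 it was 0.759 without the clone. The fold rule gave 5 barcodes higher in nRBC at 2-fold, the clone members bc1, bc2, bc3, bc4 and bc6. On the scale of minor reads it gave 8 higher in nRBC, all minor barcodes, of which listing alone fixes 7. It gave 1855 higher in Mono at 2-fold, 142 at 10-fold and 3 on the scale of minor reads. edgeR called 0 barcodes under all alternatives run, TMM factors, other filters, no day block and days left out included, with 1 at an unadjusted p under 0.05 without day 266, and DESeq2 called 0. No paired analysis by replicate number was possible because the labels give 1 library per cell type and day, so day was the block. The causes of these shifts were not tested. Minor barcodes of the later days other than bc11 hold 103 to 197 reads, so which of them are listed is limited by depth.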
